A study of Sus scrofa with 18 samples.

Results

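Sequences of microRNAs (miRNAs) that carry 1 added uridine at their 3′ end were examined in 18 pigs, in fat taken from under the skin of the back (backfat). A uridine is read as T in the DNA of a sequencing library. A member was a sequence with 1 mismatch to its hairpin precursor, with a T as its last base, whose remainder equalled an untailed sequence of the same precursor, miRNA and start position, or the leading part of one. The rule found 630 distinct sequences among the 16636 distinct sequences of the count table, or 658 when each was counted once per mature miRNA. Of the 240 mature miRNAs in the table, 185 had at least 1 such sequence and 55 had none. The untailed remainder, called the body here, was itself a listed sequence for 602 of the 658 and only the leading part of a longer one for 56. The members were 16 to 27 bases long, and 62 of the 658 entries were sequences that also stood under another miRNA.

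The pigs were Italian Large White, of 1 breed and tissue, and all weighed 150 to 160 kg. The class with high backfat deposition held 4 females and 5 castrated males aged 235 to 250 days, and the class with low deposition held 5 females and 4 castrated males aged 233 to 249 days. The animals were kept in 1 environment on 1 diet, and the labels name no treatment beside the castration of the males. Each library came from its own animal, and its reads over distinct sequences numbered 10225931 to 37619209. The amount of U tailing was expressed as a rate, the number of U-tailed reads per 100 untailed reads of the same miRNA in the same library, where untailed reads are exact matches and templated forms of another length.

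Uridine is added to small RNAs by terminal uridylyltransferases, of which TUT4 and TUT7 are the best studied. When the protein LIN28 binds a let-7 precursor, these enzymes add a run of uridines that leads to decay by the exonuclease DIS3L2. Without LIN28 a single uridine can help Dicer to cut a precursor whose 3′ overhang is short, and mature miRNAs can be tailed too. The 3′ end of a hairpin precursor becomes the 3′ end of its 3p miRNA, so a uridine added before Dicer cleavage can be found on 3p miRNAs alone, while one added afterwards can be found on either arm.

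The sequences below are the most abundant U-tailed form of the miRNAs with the highest rates and of those with the most U-tailed reads. They are shown because they carry most of the U-tailed reads and because their last bases can be compared. The capital T marks the added base, and the lower-case letters before it are the untailed body. Sequences are read 5′ to 3′ as they stand in the count table.
miR-676-3p: ccgtcctaaggttgttgagttT
miR-23b: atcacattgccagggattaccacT
miR-148b-3p: tcagtgcatcacagaactttgtT
miR-421-3p: atcaacagacattaattgggcgT
miR-452: aactgtttgcagaggaaactgT
miR-486: tcctgtactgagctgccccgagT
miR-130b: cagtgcaatgatgaaagggcatT
miR-143-3p: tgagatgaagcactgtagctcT
miR-339: tccctgtcctccaggagctcT
miR-152: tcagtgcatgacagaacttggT
miR-24-3p: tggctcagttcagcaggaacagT
miR-101: tacagtactgtgataactgaaT
miR-27b-3p: ttcacagtggctaagttctgcT
miR-103: agcagcattgtacagggctatgT
miR-378: actggacttggagtcagaaggcT
miR-148a-3p: tcagtgcactacagaactttgtT
miR-199a-3p and miR-199b-3p: acagtagtctgcacattggttT
miR-10b: taccctgtagaaccgaatttgtT
miR-199a-5p: cccagtgttcagactacctgttcT
miR-126-3p: cgtaccgtgagtaataatgcgT

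Pooled over all reads, added U was above the other 3 bases, and its lead over A rested on 1 miRNA. Over the 18 libraries the members held 29417716 reads against 344997875 untailed reads. The rate was 8.50 ± 0.725 per 100 untailed reads (SD, n = 18 libraries), with a lowest value of 7.34 in high replicate 1, a median of 8.49 and a highest value of 9.96 in low replicate 7. The same rule applied to the other bases gave 4.21 ± 0.256 for added A, 0.440 ± 0.0945 for added G and 0.146 ± 0.0137 for added C. The U rate was above the C rate and above the G rate in all 18 libraries, by 8.36 ± 0.723 and 8.06 ± 0.751 per 100 (two-sided sign-flip permutation test, adjusted p = 1e-05 for each, the smallest that 100000 resamples can give). The median over 135 miRNAs with a mean of at least 1000 untailed reads was 3.65 for U, 0.181 for G and 0.0117 for C. Against A the pooled U rate was 4.30 ± 0.845 per 100 higher, in 18 of 18 libraries (same test, adjusted p = 1.5e-05 over the 3 ways of setting U against A, which were added after the rates were seen). Without miR-143-3p, described below, U stood at 2.63 ± 0.252 and A at 4.34 ± 0.282, and A was higher in all 18 libraries (adjusted p = 1.5e-05). As medians over the 135 miRNAs U had 3.65 ± 0.327 and A 3.70 ± 0.367, with U higher in 9 libraries and A in 9 (adjusted p = 0.635). The order U above G above C also held where the next templated base was A, with 11.1, 1.18 and 0.489 per 100.

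The rule itself cannot tell an added U from a misread last base, so the templated form of the same length was set beside each member. Of the 630 members, 494 had reads of that templated form, and 133 of these had more reads with T than with the templated base. Members above their templated form, or without reads of it, held 88.6% of all U-tailed reads. miR-143-3p held 73.0% of all U-tailed reads, and the 88.6% was not computed without it. At the other end, 102 members stayed under 1% of their templated form and held 0.549% of U-tailed reads. Inner mismatches that read as T numbered from 1.02 to 7.63 per 100 untailed reads. A limit of 4 fell in a gap between 3.34 and 4.34. The 8 libraries above 4 had U-tail rates of 7.34 to 9.96 (median 8.42) and the 10 below had 7.42 to 9.80 (median 8.49). These pooled rates are mostly miR-143-3p, so they do not speak for members with few reads. The part of misread bases in the rates was not tested.

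Most U-tailed reads ended where the annotated miRNA ends. A body that stopped at the annotated 3′ end was found in 177 of the 630 members and in 79.7% of the U-tailed reads. Bodies 1 base longer held 9.56% and bodies 1 base shorter 8.74%. Without miR-143-3p these shares were 60.9%, 11.5% and 21.1%. At the other end of the molecule 449 entries began at the annotated start, with 98.0% of the reads. Reads were present in all 18 libraries for 298 entries, in some for 355 and in none for 5, where a 0 means fewer than 10 reads in a library because the table holds no lower count.

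A single miRNA dominated the total. miR-143-3p, from a cluster known from smooth muscle and from fat cell differentiation, held 73.0% of the U-tailed reads and 13.7% of the untailed reads. Its rate was 46.5 ± 7.44 per 100 (SD, n = 18), from 38.4 in the lowest to 70.9 in the highest library with a median of 44.5. The form that ends in gctcT, shown above, had 18524990 reads, close to the 20634600 of its body, and held 86.3% of the U-tailed reads of the miRNA. The templated base at that position is G, and the templated form had 5478176 reads. A base to either side the rate was lower. Per 100 reads of its body, tgagatgaagcactgtagctcgT had 34.9 ± 2.45 and tgagatgaagcactgtagctT, a base shorter, 4.64 ± 0.450. The 12 miRNAs with the most U-tailed reads together held 90.6% of them.

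Across the 135 miRNAs with at least 1000 untailed reads the rate ranged from 0 to nearly 1 tailed read for each untailed read. The median was 3.86 per 100 and the quartiles 0.740 and 13.0. At least 10 per 100 was reached by 38 miRNAs, at least 40 by 12, and 15 stayed under 0.1. The 12 include miR-339, whose rate has a denominator without its own body, as given below. The coefficient of variation over the 18 libraries was 4.75% to 42.3% in the 41 miRNAs with a mean of at least 1000 U-tailed reads. Its median was 13.5%, so these 41 varied much less from animal to animal than the rates spread between miRNAs. This does not cover miRNAs with fewer U-tailed reads, and some of those varied more, such as miR-24-1-5p at 0.387 ± 0.643.

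Among the miRNAs with a mean of at least 1000 untailed reads the highest rate was that of miR-676-3p, 96.5 ± 13.8 per 100 (lowest 77.8, median 94.3, highest 127.9), all of it in the form shown above. miR-23b, co-transcribed with miR-27b and miR-24, was next among them with 79.9 ± 10.8, from 65.4 to 106.4. Its leading form had 382557 reads against 144661 for its body and 1931 for the templated form, so the U-tailed sequence was more abundant than its own body. The version of it that lacks the first base, tcacattgccagggattaccacT, had 871 ± 107.5 reads per 100 of its body. miR-148b-3p had 68.2 ± 11.3, miR-421-3p 59.4 ± 9.63, miR-452 58.2 ± 16.3, the red blood cell miRNA miR-486 52.7 ± 5.85 and miR-130b, of a family that represses the fat cell regulator PPARG, 51.6 ± 6.68.

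Rates just below these were found for miR-152 (42.6 ± 5.36), miR-24-3p (42.6 ± 9.998) and miR-101 (40.05 ± 3.50). In each, a few ends carried the tail. miR-24-3p had 340 ± 87.4 U-tailed reads per 100 reads of the body of its leading form, but 2.32 ± 0.412 on tggctcagttcagcaggaacT, whose body was the more abundant form. miR-101, which represses the chromatin enzyme EZH2, had 193 ± 11.1 on the body of its leading form and 20.6 ± 2.01 a base further on. The listed rate of miR-339, 44.1 ± 10.3, does not have its own body in the denominator, because the table lists that body as an exact form of miR-4334-3p. With the body as denominator it was 7.42.

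At the low end stood abundant miRNAs as well as rare ones. miR-10b, the most abundant miRNA here by untailed reads, had 0.190 ± 0.0156 per 100, from 0.162 to 0.225. No U-tailed read was listed for miR-144, miR-32, miR-338 and miR-374b-5p, and miR-374a-5p had 0.0240 ± 0.0568. In the library with the fewest reads of each, the table's minimum of 10 reads would hide a single sequence of up to 0.713 per 100 for miR-144, 2.27 for miR-32, 3.00 for miR-338, 2.40 for miR-374b-5p and 0.469 for miR-374a-5p.

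U tails were found mainly on 3p miRNAs, which derive from the 3′ strand of the hairpin. The rate pooled over 3p miRNAs was 25.005 ± 2.74 per 100 against 0.723 ± 0.0987 for 5p miRNAs (SD, n = 18), and 3p was higher in 18 of 18 libraries (two-sided sign-flip permutation test, adjusted p = 1e-05, the smallest 100000 resamples can give). Without miR-143-3p and miR-10b the rates were 9.60 ± 0.813 and 1.25 ± 0.135, with 3p again higher in all 18 and the same p. The medians over miRNAs were 7.31 for 60 3p miRNAs and 1.41 for 75 5p miRNAs. Arms were set by start position in the precursor, 5p before position 60, and 0 names that carry an arm went against this. Names without an arm could not be checked in this way, among them miR-339, miR-452 and miR-486. By position alone, 10 of the 12 highest rates were placed on the 3p arm. The 12 include miR-452 and miR-486, whose placement was not checked, and the pooled rates and medians above use the same placement. They also include miR-339, likewise not checked, at 7.42 with its own body as denominator.

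A U tail cannot be seen where the templated next base is itself T. That was the case for the most abundant untailed form of 34 of the 135 miRNAs, 25 on the 5p and 9 on the 3p arm, whose median rate was 0.788 per 100. It was 6.97 for the 81 miRNAs with A, C or G next. Among miRNAs with A, C or G next the medians were 10.9 ± 1.04 for 38 3p and 2.23 ± 0.323 for 43 5p miRNAs, a difference of 8.63 ± 0.877 that was positive in all 18 libraries (adjusted p = 1e-05, same permutation test).

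Within single hairpins the picture was less uniform. Both arms had at least 1000 untailed reads in 17 hairpins, and the 3p arm had the higher rate in all 18 libraries in 9 of them. These were mir-24-1 (42.6 against 0.387), mir-30e (18.4 against 3.14), mir-423 (15.5 against 0.832), mir-126 (11.4 against 0.602), mir-30a (9.29 against 1.75), mir-28, mir-148a, mir-145 and mir-374a. In 4 of the 9, mir-24-1, mir-423, mir-28 and mir-145, the base after the most abundant 5p form is T, so a U tail on that form cannot be seen. The 5p arm was higher in all 18 libraries in 4 hairpins. The widest such gap was in mir-199a-1, with 36.8 ± 3.92 for miR-199a-5p and 5.61 ± 0.709 for miR-199a-3p, and mir-193a had 19.5 ± 2.45 on the 5p and 2.55 ± 0.604 on the 3p arm. The others were mir-708 (15.1 against 7.41) and mir-7134 (13.2 against 8.99). The base after the most abundant 3p form was T in 0 of these 4 and not covered by listed forms in 2. In the remaining 4, let-7d, mir-30c-2, mir-199b and mir-361, neither arm was higher in every library, though in mir-199b the 5p arm was higher in all but 1.

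Related miRNAs that share their seed, bases 2 to 8, which chooses the targets, had unlike rates. The pairs below were chosen after their values were seen, so the values are a description without a test. miR-23b stood at 79.9 and miR-23a at 3.55 ± 0.421, miR-130b at 51.6 and miR-130a at 0.548 ± 0.137, and miR-146a-5p at 23.9 ± 3.03 and miR-146b at 0.122 ± 0.210, listed at 0 in 12 of 18 libraries. In the miR-148 family miR-148b-3p had 68.2, miR-152 had 42.6 and miR-148a-3p had 2.65 ± 0.245. The leading forms of miR-148a-3p and miR-148b-3p printed above end in the same 12 letters before the T.

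Some of these pairs also differed in where the bodies end. The most abundant untailed form of miR-23b was atcacattgccagggattacca and that of miR-23a atcacattgccagggatttcc. In miR-27, which restrains fat cell differentiation, miR-27a had 17.7 ± 5.09 and miR-27b-3p 7.18 ± 1.08. Per 100 reads of bodies that both end in c the leading forms had 60.2 ± 11.2 for ttcacagtggctaagttccgcT of miR-27a and 17.5 ± 3.30 for the miR-27b-3p form above, so the gap was present at matching ends. miR-103 and miR-107, both tied to insulin signalling, had 37.4 ± 4.81 and 29.3 ± 3.86. The leading form of miR-107, agcagcattgtacagggctatT, is also listed under miR-103, and 83.2% of the U-tailed reads of miR-107 are shared in this way. From sequences of a single miRNA the order turned, with 38.9 ± 5.24 for miR-103 and 49.7 ± 9.51 for miR-107.

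The let-7 family, whose precursors are the best known substrates of the uridylyltransferases, had low rates on its mature miRNAs in this tissue. Rates were 0.0921 ± 0.0104 per 100 for let-7a, 0.745 ± 0.107 for let-7c, 0.0572 ± 0.0412 for let-7d-5p, 0.02995 ± 0.00533 for let-7f, 0.168 ± 0.0383 for let-7g and 0.0398 ± 0.0111 for let-7i. miR-98, of the same family, had 1.62 ± 0.527, and let-7d-3p from the other arm 0.0251 ± 0.0735. A uridine added to the precursor can be found on that other arm alone. The rates of the rest of the family therefore do not measure tailing of the precursors. For let-7a, let-7c, let-7d and let-7g the base after the most abundant form is T, so a U tail on that form would be counted as templated and their rates describe shorter or longer ends alone. let-7e stood apart with 9.99 ± 0.704. Its leading form tgaggtaggaggttgtatagttT is also listed under let-7a as a form with 1 inner mismatch, and without such shared sequences the rate of let-7e was 0.469.

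Other miRNAs with a known processing route had a wide range of rates. miR-143-3p and miR-107 come from precursors with a motif bound by LIN28, and their rates are given above. miR-143-5p, from the same hairpin as miR-143-3p, had 56.6 ± 15.2 per 100, but over a mean of 209 untailed reads. miR-320, made without Drosha, had 29.2 ± 3.48 per 100 spread over 17 members, with aaaagctgggttgagagggcgaT leading. miR-451, made without Dicer, had 0.0674 ± 0.0255. miR-324, a known target of uridylation as a precursor, had 1.15 ± 1.71 over a mean of 530 untailed reads and was at 0 in its median library. The name miR-324 carries no arm, and on a 5p miRNA such a rate does not measure tailing of the precursor. miR-26a, miR-26b, miR-200c and miR-484 were not analysed here.

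A second added U was listed for fewer miRNAs than a single one. Sequences with 2 mismatches that end in TT after an untailed body numbered 160, with 2274732 reads, or 7.73 for each 100 U-tailed reads. They had reads for 68 miRNAs. A single added U was listed for 185, a count that includes miRNAs whose listed form had no reads, such as miR-144. The rate of such UU ends was 18.2 per 100 untailed reads for miR-152, 8.41 for miR-320, 4.32 for miR-103 and 4.10 for miR-143-3p. It was 0 for miR-148b-3p and miR-676-3p. Where either of the 2 templated bases after the body is T, a TT end has fewer than 2 mismatches and is not counted as UU. Whether this holds for miR-148b-3p and miR-676-3p was not examined.

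High backfat was compared with low to ask whether tailing differs with fat deposition. The pooled rate was 8.22 ± 0.754 per 100 in the high class (lowest 7.34, median 8.32, highest 9.80) and 8.78 ± 0.611 in the low class (7.90, 8.82 and 9.96; SD, n = 9 each). The classes overlapped, and the difference of -0.560 did not pass (exact two-sided permutation test over all splits of 9 against 9, p = 0.104, adjusted p = 0.415 over 8 library measures). Without high replicate 2, the highest of its class, the difference was -0.757 (exact p = 0.0132). The median rate over miRNAs, in which miR-143-3p counts like any other, was 3.50 ± 0.366 in high and 3.80 ± 0.205 in low backfat. That difference of -0.299 had an exact p of 0.0480, not adjusted for the other ways of computing it. The pooled difference, not the median, was also computed without miR-143-3p, where its sign turned, to 0.0563 (exact p = 0.642).

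The libraries carry codes that fall into 4 runs, and the pooled difference was computed within each. It was -1.09 in the run coded AC485 to AC488, which holds 1 high and 3 low libraries, -0.193 and -0.0925 in runs with 2 of each, and -0.733 in the run with 4 high and 2 low. For the median over miRNAs the differences were -0.186, -0.620, -0.466 and -0.299 in the same order. With the first run left out the pooled difference was -0.421 (exact p = 0.257). Added A, measured by the same rule, was higher in the high class, 4.36 ± 0.189 against 4.05 ± 0.222 (exact p = 0.00391, adjusted p = 0.0313 over the same 8 measures). Total reads, inner mismatches, and the C and G rates had adjusted p of 0.985.

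No single miRNA's U-tail rate passed the test between the classes. In edgeR's quasi-likelihood fit, with untailed reads as offset and sex as a covariate, 0 of 155 U rows were called, beside 0% called among all 455 rows of miRNA and added base. Of the 155, 71 had a positive and 84 a negative log2 fold change, with a median of -0.02 against 0.06 over all rows. At an unadjusted p under 0.05 there were 25 U rows, 11 positive and 14 negative, among 61 of all rows. DESeq2 called 6 of the 155, beside 3.3% of all rows: let-7i, miR-27a and miR-101 lower and miR-107, miR-127 and miR-23b higher in high backfat. These 6 also had the lowest p in edgeR.

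let-7i had the lowest p of the U rows, with 0.0234, 0.0308 and 0.0488 per 100 as lowest, median and highest value in the high class and 0.0390, 0.0475 and 0.0584 in the low class. Its log2 fold change was -0.60 ± 0.15 (SE, edgeR adjusted p = 0.0724), and the classes overlapped. Nearly all of it, 99.4%, was tgaggtagtagtttgtgctT, whose body is a short form with a median of 0.794% of the untailed reads of let-7i. The median share of that body was 0.701% in high and 0.820% in low backfat. Per 100 reads of that body the tailed form had 4.44 ± 1.07 in high and 5.57 ± 0.575 in low backfat. The part of each in the fold change was not tested. The rate of let-7i passed in edgeR with the run of library codes added (-0.73 ± 0.14, adjusted p = 0.0342). It also passed without high replicate 5 (-0.69 ± 0.14, adjusted p = 0.0401). Over all 28 alternatives its adjusted p ran from 0.0145 to 0.238.

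The other 5 that DESeq2 called had smaller or more variable differences. miR-27a had a median of 14.4 per 100 in high backfat and 19.2 in low, with ranges of 11.7 to 19.3 and 13.6 to 30.5 (log2 fold change -0.47 ± 0.14, edgeR adjusted p = 0.127). It was 11.5 per 100 lower in high backfat in the run coded AC485 to AC488 and 1.03 to 5.06 lower in the other 3. miR-101 had medians of 38.1 and 42.1 (-0.17 ± 0.05, adjusted p = 0.152). miR-107 had medians of 31.7 and 27.2 (0.26 ± 0.07), miR-127, of the imprinted DLK1-DIO3 region, 12.1 and 10.3 (0.34 ± 0.10), and miR-23b 87.0 and 74.1 (0.23 ± 0.07), each with an edgeR adjusted p of 0.127. The direction of miR-23b was not the same in each run: the high class was 5.45, 14.99 and 28.8 per 100 higher in 3 runs and 6.99 lower in the fourth.

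miR-143-3p, which holds most of the U-tailed reads, had 38.4, 42.9 and 49.2 per 100 as lowest, median and highest value in the high class and 42.7, 46.4 and 70.9 in the low class. The log2 fold change was -0.24 ± 0.08 (edgeR adjusted p = 0.214), and -0.10 with libraries AC485 to AC488 left out (adjusted p = 0.621). The difference within runs was -15.3 per 100 in that run and -3.20 to -4.10 in the other 3.

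Over the 135 miRNAs with at least 1000 untailed reads the classes overlapped in every case. At the level of single ends, 200 members had reads in all 18 libraries and at least 100 reads of their body in each. For 1 of these the classes did not overlap, beside 0.165% of the 606 tailed forms of any base. It was the leading form of miR-24-3p, with 267 to 322 reads per 100 of its body in the high class (median 292) and 323 to 665 in the low class (median 364). This measure was computed after the values above had been seen, and the nearest values of the classes were 321.8 and 322.6.

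Castrated males were compared with females as the other labelled factor. The pooled rate was 8.36 ± 0.848 in castrated males and 8.64 ± 0.596 in females (exact two-sided permutation test, p = 0.432). In the same edgeR fit 0 of 155 U rows were called and 0 had an unadjusted p under 0.05, beside 0.22% of all 455 rows called. DESeq2 called 0 U rows. The 5 lowest p were those of miR-210, a miRNA induced by low oxygen (-0.18 ± 0.10), miR-664-3p (-0.28 ± 0.15), miR-432-5p (-1.29 ± 0.69), miR-30a-3p (-0.11 ± 0.06) and the muscle miRNA miR-133a-3p (-0.33 ± 0.19), as log2 fold changes of castrated males over females with an edgeR adjusted p of 0.972. The difference of the class contrast between the sexes was called for 0 of 155 U rows, beside 0% of all rows, with 3 at an unadjusted p under 0.05 and a lowest adjusted p of 0.818. DESeq2 was not run for that difference.

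The listed groups of miRNAs did not stand out by their class contrast. In the let-7 family 5 of 8 tested members had a positive and 3 a negative log2 fold change, with a median of 0.03 and 0 called. Markers of other cell types were read in the same fit. Of the skeletal muscle list 1 of 5 members had enough U-tailed reads to be tested, of the red blood cell list 2 of 3, of the leukocyte list 3 of 3 in the table and of the endothelial list 2 of 2, with 0 called. Summed untailed reads of the muscle list were 54.0 to 238 per 1000000 reads in the high class and 102 to 347 in the low. Those of the red blood cell list were 2612 to 4122 and 1837 to 7435. The epithelial marker miR-205 had at most 39.7 and the liver marker miR-122 at most 28.2 in any library. In bulk tissue fewer cells of a type and less RNA per cell cannot be told apart, and the part of such cells in the rates was not tested.

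The abundance of each U-tailed sequence was also compared, in counts scaled to 1000000 per library (CPM) over the 8025 distinct sequences of the table that passed a filter on low counts. Of the 630 members 448 were tested. edgeR called 0 of them, beside 0% of the 8025. At an unadjusted p under 0.05 there were 48, or 10.7%, against 5.82% of all sequences tested. DESeq2 called 23 members, 9 higher and 14 lower in high backfat, or 5.13% against the 1.88% of all sequences it called.

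The lowest p values belonged to the shared forms of miR-199a-3p and miR-199b-3p, which are abundant in fibroblasts. Their leading form, printed above, had 189, 309 and 371 CPM as lowest, median and highest value in the high class and 348, 497 and 625 in the low class (a log2 fold change of -0.68 ± 0.16, edgeR adjusted p = 0.258). acagtagtctgcacattgT, with a shorter body, had 2.24 to 4.44 CPM in high backfat against 4.54 to 6.93 CPM in low (-0.90 ± 0.18, edgeR adjusted p = 0.166). It was picked for the lowest p among the members. How many other sequences had classes apart by level was not counted. The rate per untailed read of both miRNAs overlapped between the classes, with medians of 5.32 and 5.60 for miR-199a-3p and 4.85 and 5.26 for miR-199b-3p. Among the others that DESeq2 called, the leading form of miR-27a had 294 ± 50.4 CPM against 465 ± 142 (edgeR -0.66 ± 0.17, adjusted p = 0.308) and agcagcattgtacagggctatgaaT of miR-103 had 6.74 ± 1.28 against 4.51 ± 0.819 (0.57 ± 0.16, adjusted p = 0.369).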

How the data were processed

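Per the labels' protocols, Trizol was used to extract total RNA, Illumina's TruSeq Small RNA kit gave the libraries, and a GAII instrument read 100 bases from 1 end. The authors deposited raw counts of reads for each sequence under each precursor and miRNA, and the same values as a normalised signal, used here in 1 alternative. Per the submitters' processing notes, the authors used Bowtie 0.12.7, HTSeq, DESeq2 1.4.5 and the build Sscrofa10.2. Their roles, the trimming of adapters and the mismatch limit were not given in the sources used here. No genome was used, so no genomic positions are given.

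A sequence listed under several precursors carried its deposited count divided over its listings: the lowest count above 0 was 10 for sequences listed once, 5 for those listed 2 times and 3 for those listed 3 times. Reads of a sequence were therefore summed over its listings. Of the 3474 sequences listed more than once, 6 had unequal listings. Each sequence counted once per miRNA with all its reads, so shared sequences stand under each. 2 columns of values match no sample and were not used. Chi-square per degree of freedom was at least 38.5 in each of 153 pairs of libraries, so none was counted as a repeat of another. Sequencing depth gives the pooled rates little counting error: as a share of tailed and untailed reads, high replicate 1 had 6.84% (Wilson 95% interval 6.82% to 6.85%). Intervals cover counting error only, since reads carry no molecular identifiers.

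Rates per miRNA and added base with a mean of at least 10 tailed reads were fitted with edgeR's quasi-likelihood test, with the log of untailed reads plus 0.5 as offset and sex and class as factors. Levels of distinct sequences were fitted with TMM scaling after filterByExpr. Benjamini-Hochberg adjustment ran over all rows, with a threshold of 0.05. DESeq2, limma, other filters, age, run and single libraries left out were alternatives. Pooled rates were compared over libraries by exact permutation and within libraries by sign flips. The scripts were tested on simulated data. R 4.3.3, edgeR 4.0.16, limma 3.58.1, DESeq2 1.42.0, Python 3.11.15, pandas 2.3.3, NumPy 2.4.6 and SciPy 1.17.1 were used.

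Members, lists and tests were chosen with earlier results of these data known. Named miRNAs were the 12 highest and 5 lowest rates among those with 1000 untailed reads, the 12 with most U-tailed reads, the 5 lowest p of each contrast, the let-7 family and miRNAs with known tailing or processing routes. Others that are named, such as relatives and arms, were chosen after their values were seen.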

Additional observations from a re-analysis of the deposited data

Results flagged for a closer look

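In groups of 9 libraries, 14 of 88 groups of named rates held a library far from the rest of its class. The limit used flags about 5% of groups by chance when values are normally distributed and groups independent. That does not hold for groups with mostly 0 values or for miRNAs that share sequences, so 14 cannot be set against 5%. Low replicate 7, which also had the fewest reads, lay far from its class for 6 miRNAs. It had 70.9 U-tailed reads per 100 untailed for miR-143-3p, with 54.5 as the next value, 74.9 for miR-24-3p (next 52.2) and 7.58 for miR-199b-3p (next 5.95). It lay low for miR-27b-3p at 5.20 (next 6.23), for miR-148a-3p at 1.92 (next 2.52) and for miR-432-5p at 0 (next 23.0). High replicate 5 had 5.86 for miR-199b-3p and 6.55 for miR-199a-3p, which share their sequences. High replicate 7 had 127.9 for miR-676-3p (next 102.0) and high replicate 9 had 111.4 for miR-452 (next 67.0). In the other 4 groups a single library had any listed U-tailed read: high replicate 8 at 0.169 for miR-374a-5p and 0.203 for let-7d-3p, low replicate 3 at 0.249 for let-7d-3p and low replicate 4 at 2.68 for miR-324.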

How the results depend on the processing

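The pooled difference between high and low backfat reversed without miR-143-3p (0.0563), which was added after seeing the data. It also reversed without miR-10b and miR-143-3p (0.0297). The median over miRNAs (-0.299) had an exact permutation p of 0.0480. That was the lowest of 12 alternatives and was not adjusted for their number. Leaving out single libraries gave -0.757 to -0.413, past the threshold only without high replicate 2 (exact p = 0.0132). The sex difference ranged from -0.796 to -0.0742 over 12 alternatives and from -0.476 to -0.132 without single libraries, with no call. Calls of U rows between classes were 6 with DESeq2 and 1 with run added, and 0 to 1 without single libraries (1 without high replicate 5). For sex and for levels without single libraries they were 0. Members called by level were 23 with DESeq2 and 0 in the other 5 alternatives. The difference between arms (5.90 to 46.6) and those of U from C (3.63 to 13.5) and from G (3.46 to 13.0) kept direction and call in each alternative. That of U from A (4.30) reversed without miR-143-3p (-1.71) and as the median over miRNAs (-0.0564, adjusted p = 0.635). With exact matches alone as denominator 39 of the 47 named rates moved by over 1 SD, 35 upward. No paired analysis was possible because the labels give no replicate numbers shared between classes. The difference of the class contrast between sexes was fitted in 1 way. Counts under 10 are missing, which limits rates of rare miRNAs.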
